A study of Mus musculus with 12 samples.

Results

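The genes described are 9 of the 55416 gene identifiers counted in mouse dorsal root ganglia. Creg2, Lrrn4, Smr2, Dpys, Fyb2, H2-M11 and Serpina1e were chosen by their iKO-against-control fold change, since their counts were lower in ganglia with an induced deletion of Prdm12 (iKO) than in controls. Creg1 and Lrrn1 are relatives of Creg2 and Lrrn4 and were taken for comparison. The fall of the 7 picked genes is therefore a description of how they were chosen, and it carries no test. Tests are given for the 2 relatives, for other genes of the same families, and for sex and injected agent, which played no part in the choice. The lists of other genes were drawn up with earlier results of these data known, which limits what their tests show. The identifiers in the counts are ENSMUSG00000050967 for Creg2 and ENSMUSG00000040713 for Creg1 (both chromosome 1), ENSMUSG00000043110 for Lrrn4 (chromosome 2), ENSMUSG00000034648 for Lrrn1 (chromosome 6), ENSMUSG00000029281 for Smr2 (chromosome 5), ENSMUSG00000022304 for Dpys (chromosome 15), ENSMUSG00000078612 for Fyb2 (chromosome 4), ENSMUSG00000037537 for H2-M11 (chromosome 17) and ENSMUSG00000072849 for Serpina1e (chromosome 12).

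All 12 libraries came from adult mice labelled C57Bl6, and the question put to them was what the loss of Prdm12, a zinc finger regulator, changes in the adult ganglion. The 6 iKO libraries had the genotype Rosa26Cre ERT2; Fl/Fl, in which a tamoxifen-activated Cre recombinase sits at Rosa26, a locus active in most cell types, and both Prdm12 alleles are floxed. These animals were injected with tamoxifen (tamoxyfene in the labels) a month before sampling. Control 1 was Rosa26Cre ERT2; Fl/+, controls 2 and 3 were +/+; Fl/+, and control 4 was Rosa26Cre ERT2; +/+, all injected with tamoxifen. Controls 5 and 6 were Rosa26Cre ERT2; Fl/Fl animals injected with corn oil. The females were controls 1 and 2 with iKO 1 to 3, and 7 libraries were male. Whether a library holds the ganglia of a single animal is not stated in the labels, so each p-value reflects only how far these samples vary, which may be technical.

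Dorsal root ganglia hold the cell bodies of the sensory neurons for touch, itch, temperature and pain, together with satellite glia, Schwann cells, vessels and immune cells. Prdm12 is required in the embryo for pain-sensing neurons (nociceptors) to form. The 7 lowered genes encode a secreted glycoprotein, a neuronal membrane protein, a salivary-type secretory protein, a pyrimidine-degrading enzyme, an adaptor of lymphocyte signalling, a class I histocompatibility protein and a protease inhibitor. Smr2 is a known marker of some neurons that make the peptide CGRP. In whole ganglia, fewer cells of a type and less RNA per cell cannot be told apart.

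Total counts ran from 13943784 to 20377766 per library. Levels are given as CPM, the counts of a gene over all counts of the library on a per-1e6 scale, with library sizes adjusted by edgeR's trimmed-mean (TMM) factors, and a gene is called where edgeR's quasi-likelihood F-test, adjusted after Benjamini and Hochberg over all genes tested, gave p under 0.05. Prdm12 was at 117 ± 29.4 CPM in the controls against 23.3 ± 2.51 CPM after its deletion (SD, n = 6 each), with control 6 lowest among controls at 64.6 CPM, 50.5% of the mean of the other 5. Of 59 tested genes in 12 lists of cell type markers 0 were called in edgeR (3 at an unadjusted p under 0.05). The summed level of 11 sensory neuron markers ran from 11494 to 15822 CPM in controls and from 10644 to 15465 CPM in iKO libraries. The lowest of these sums was that of iKO 1, which also had the highest summed level of fibroblast markers, 3178 CPM against 1213 to 1799 CPM in the other 11 libraries, and of endothelial markers, 187 CPM against 77.8 to 112 CPM. Its part in the results was not tested beyond giving values without it. All 5 erythroid markers had negative log2 fold changes (median -0.80), with sums of 123 to 267 CPM in controls and 72.5 to 287 CPM in iKO libraries, the highest being iKO 1. All 5 skeletal muscle markers were negative as well (median -0.73), and control 6, the control lowest for Prdm12, had 381 CPM of them against at most 81.5 CPM in any other library. Of 6 Schwann cell markers 5 were positive (median 0.25), with sums of 3902 to 4954 CPM in controls and 4485 to 6385 CPM in iKO libraries. The part of these markers in the results was not tested.

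All 7 picked genes were called lower over the 16384 genes tested, as their choice required, where 0.946% of genes were called, 0.409% lower, and 9.52% had an unadjusted p under 0.05. Every iKO library was below every control in 6 of the 7 (all but Smr2), where this held for 0.665% of genes tested. This separation rests on the same values by which the 7 were picked, so it too describes the choice.

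Creg2 and Creg1 encode glycoproteins of the CREG family, small proteins that enter the secretory and lysosomal route. Creg1 is made in most tissues, and Creg2 mainly in the nervous system. Creg2 lay at 21.2, 27.5 and 33.1 CPM in controls and at 5.29, 9.89 and 13.1 CPM in iKO libraries (lowest, median and highest of 6). Every iKO library was below every control, and the lowest control was 1.62 times the highest iKO library. The mean went from 27.4 ± 3.85 to 9.73 ± 2.52 CPM (SD, n = 6 each), 35.4% of the control level, with a log2 fold change of -1.46 ± 0.15 (SE). Controls 5 and 6, with the iKO genotype and corn oil, had 33.1 and 27.6 CPM of Creg2. Creg2 and Prdm12 thus differed in control 6, where Creg2 stood at 101% and Prdm12 at 50.5% of the mean of the other controls.

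Creg1 lay at 20.3, 21.8 and 25.6 CPM in controls and at 21.3, 22.7 and 29.8 CPM in iKO libraries (lowest, median and highest of 6). The groups overlapped, and the log2 fold change was 0.08 ± 0.09 (SE, 95% interval -0.12 to 0.27, adjusted p = 0.829 in edgeR). Permuting the group labels over log2 CPM (exact, 2-sided) gave p = 0.435. The interval leaves out a fall of the size seen for Creg2. The highest Creg1 value was that of iKO 1, and without that library the log2 fold change was 0.01. On the scale of CPM per kilobase of exon, controls had 9.47 ± 0.828 for Creg1 and 4.51 ± 0.632 for Creg2 (SD, n = 6 each), and iKO libraries had 10.04 ± 1.35 and 1.597 ± 0.414. Creg1 was above Creg2 in both groups with no overlap.

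The deposited counts come from libraries without strand information, and 15.1% of Creg2's exon bases overlap D930019O06Rik, a gene on the other strand. The control mean of that gene was 0.467 ± 0.235 CPM and its iKO mean 0.236 ± 0.0791 CPM (SD, n = 6 each), with 2 to 11 counts per library. Its mean differed by 0.231 CPM between the groups, and that of Creg2 by 17.7 CPM. Of 19 tested genes of the lysosome, the compartment of Creg1, 0 were called in edgeR (3 at an unadjusted p under 0.05, 2 called by DESeq2 and 0 by limma-voom), with a median log2 fold change of 0.04. Without control 5 or iKO 1 the count was 2. The smallest p was that of Igf2r, the receptor that carries mannose 6-phosphate proteins to lysosomes and binds CREG1 (0.36 ± 0.08 SE, adjusted p = 0.0532 in edgeR).

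**Figure D1:**
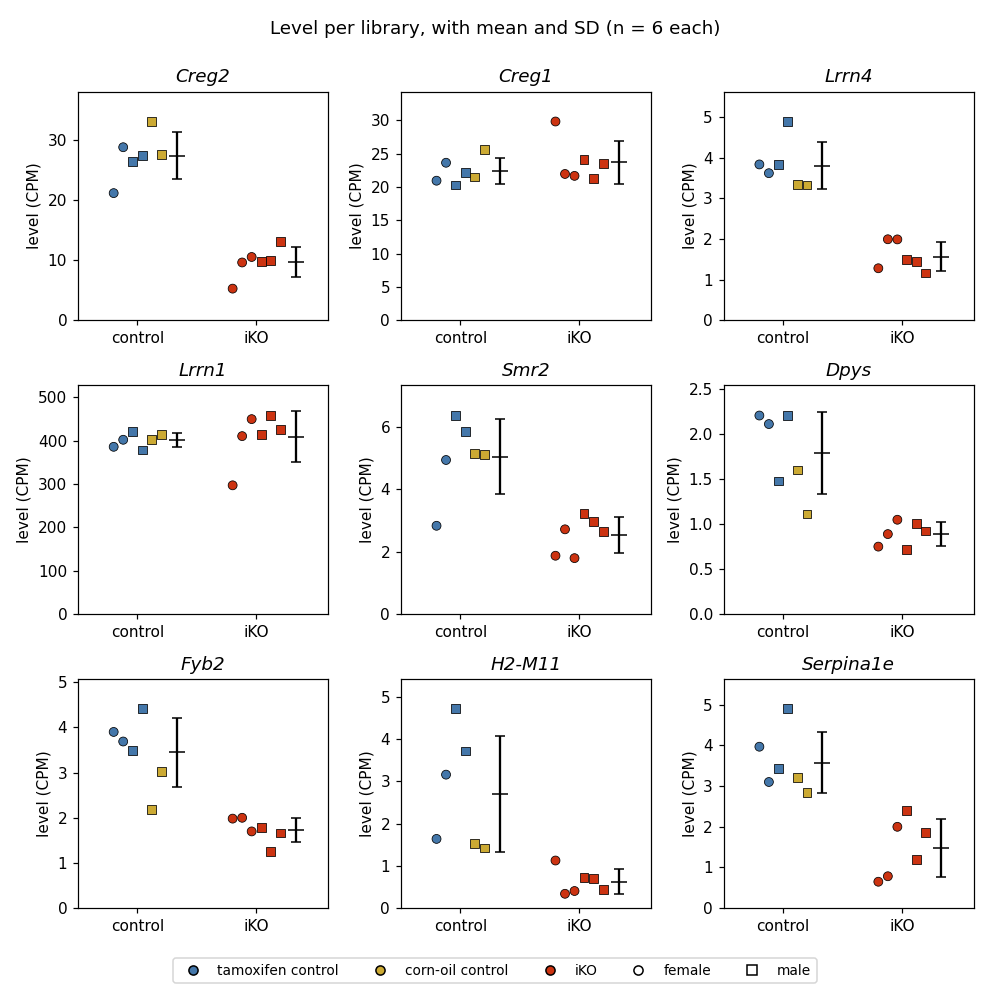
Level in CPM (vertical axes, starting at 0) of each of the 9 genes in each control and iKO library, with circles for females, squares for males, colours for tamoxifen controls, corn-oil controls and iKO, and a bar for the mean and SD of 6 libraries. Groups are apart for 6 of the 7 picked genes and overlap for Smr2, Creg1 and Lrrn1, and iKO 1 is the highest iKO library for Creg1 and the lowest for Lrrn1.

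Lrrn4 and Lrrn1 belong to the LRRN family of neuronal membrane proteins with leucine-rich repeats outside the cell. Lrrn4 lay at 3.33, 3.73 and 4.89 CPM in controls and at 1.17, 1.47 and 2.00 CPM in iKO libraries (lowest, median and highest of 6). No iKO library reached a control, the lowest control being 1.67 times the highest iKO library. Its mean went from 3.81 ± 0.576 to 1.56 ± 0.354 CPM (SD, n = 6 each), 41.0% of the control level, with a log2 fold change of -1.31 ± 0.17 (SE). Counts of Lrrn4 were 19 to 71 per library, so counting error adds to the spread between libraries.

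Lrrn1 was far more abundant and lay at 379, 403 and 421 CPM in controls and at 297, 421 and 459 CPM in iKO libraries (lowest, median and highest of 6). Its log2 fold change was 0.05 ± 0.09 (SE, 95% interval -0.14 to 0.23, adjusted p = 0.896 in edgeR, exact 2-sided permutation p = 0.924). The value of 297 CPM was that of iKO 1, 68.8% of the mean of the other 5 iKO libraries, and without it the log2 fold change was 0.11. On the scale of CPM per kilobase Lrrn1 stood at 108 ± 4.38 and Lrrn4 at 1.03 ± 0.155 in controls (SD, n = 6 each). The remaining genes listed with the LRRN family were Lrrn2, Lrrn3 and Lrrn4cl. Their log2 fold changes were 0.33 ± 0.14 (SE), -0.08 ± 0.08 and -0.13 ± 0.23, with adjusted p of 0.458, 0.784 and 0.885 in edgeR. Of 5 tested genes of this list 1 was called, Lrrn4, which was picked for its fall. Of 31 other neuronal leucine-rich repeat genes (the LINGO, LRRTM, SLITRK, FLRT, LRRC4, LRFN, LRIG and AMIGO families), 0 were called in edgeR, 1 by DESeq2 and 0 by limma-voom. An unadjusted edgeR p under 0.05 was found for 10 of the 31, against 9.52% of all genes tested. Log2 fold changes were positive for 22 and negative for 9, with a median of 0.13, and the cause of this lean was not tested. The smallest p was that of Amigo1 (0.30 ± 0.08 SE, adjusted p = 0.123 in edgeR). Without iKO 1, 2 of them were called.

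The start regions of this pair differed in composition, and they are shown because Lrrn4 and Lrrn1 are of a family and differed in their counts. The 300-base RefSeq window (250 bases before to 50 after the start, build GRCm38.p6) of Lrrn1 held 24 CpG dinucleotides, and that of Lrrn4 held 7, which is the median of 27018 mouse promoters (quartiles 3 and 21). The stretches printed end before the RefSeq start, or before a GENCODE start that lies upstream of it in the window, which leaves 221 bases for Lrrn4 and 250 for Lrrn1. They are chr2:132880892-132881112 (- strand) for Lrrn4 and chr6:107529476-107529725 (+ strand) for Lrrn1. Capitals mark the GC box GGGCGG and the CCAAT box on either strand, and no capitalised matches overlap.
Lrrn4: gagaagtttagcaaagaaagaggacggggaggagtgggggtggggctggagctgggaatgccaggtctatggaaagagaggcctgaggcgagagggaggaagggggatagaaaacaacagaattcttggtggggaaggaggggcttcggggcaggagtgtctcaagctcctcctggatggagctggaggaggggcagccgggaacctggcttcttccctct
Lrrn1: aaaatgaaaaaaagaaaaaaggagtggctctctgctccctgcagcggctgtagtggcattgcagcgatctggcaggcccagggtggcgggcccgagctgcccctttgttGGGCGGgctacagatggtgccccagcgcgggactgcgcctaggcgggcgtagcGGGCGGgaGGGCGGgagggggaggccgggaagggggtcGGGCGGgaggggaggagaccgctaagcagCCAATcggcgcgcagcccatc
GGGCGG was matched 4 times in the Lrrn1 window and 0 times in that of Lrrn4, and 35.9% of all promoters hold it.

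Smr2 encodes a small secretory protein first known from the submaxillary gland and lies in a gene cluster with the caseins and enamel proteins. Among the 7 picked genes it had the log2 fold change nearest to 0. Smr2 lay at 2.83, 5.14 and 6.37 CPM in controls and at 1.79, 2.68 and 3.22 CPM in iKO libraries (lowest, median and highest of 6). The groups overlapped through control 1, a female with 2.83 CPM, and 4 of 6 iKO libraries were below every control. On average it went from 5.05 ± 1.21 to 2.53 ± 0.580 CPM (SD, n = 6 each), with a log2 fold change of -0.91 ± 0.16 (SE). It was not called without control 2, a setting in which 3 of the 7 picked genes were called.

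Other genes of the cluster were at or near 0 in these ganglia. Of the 11 cluster genes matched, Smr2 alone passed the filter on low counts, and 6 (Prol1, Csn1s1, Csn2, Csn3, Odam and Amtn) had 0 counts in all 12 libraries. Smr3a, another gene of the cluster, had 2 counts in all libraries. Of 5 salivary gland markers Prb1 had 0 counts in all libraries, and their summed level, 22.96 to 31.46 CPM in controls and 24.1 to 32.1 CPM in iKO libraries, came mostly from Amy1, the only marker of the 5 that was tested. Among 12 tested genes of CGRP-expressing neuron subtypes Calcb, which encodes β-CGRP, rose (0.59 ± 0.09 SE, adjusted p = 0.00311 in edgeR). Smr2, which was picked for its fall, was the only member called lower, and the list median was -0.05. The count of called genes was 1 without control 2 and 3 without iKO 1. Of 17 genes of nonpeptidergic nociceptors 3 were called lower (the itch receptor gene relative Mrgprb5, Otoa and the kainate receptor gene Grik1, from -1.32 to -0.84). In this list 0 were called higher, and its median was -0.13. Over all genes tested 0.409% were called lower. Both this list and that of the CGRP-expressing subtypes were chosen with earlier results of these data known. Their counts, and the p of Calcb, are therefore descriptions only.

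The Smr2 window held 0 CpG dinucleotides in 300 bases and 39.0% G and C, against a median of 52.7% over 27018 promoters. It is shown as the CpG-free extreme among the 8 members with a RefSeq window, and its upstream bases are chr5:88086306-88086555 (+ strand) in GRCm38.p6, with the CCAAT box in capitals.
Smr2: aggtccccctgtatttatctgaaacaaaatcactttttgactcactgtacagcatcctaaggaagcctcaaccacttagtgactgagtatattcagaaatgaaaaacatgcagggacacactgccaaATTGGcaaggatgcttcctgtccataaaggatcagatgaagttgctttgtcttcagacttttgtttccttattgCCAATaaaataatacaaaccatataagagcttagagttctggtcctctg
The 8 windows include those of the comparison genes Creg1 and Lrrn1, which both held CCAAT and GGGCGG. Among the picked genes, CCAAT was in the windows of Smr2, H2-M11 and Serpina1e, and GGGCGG in that of Fyb2 alone. CCAAT was found on either strand in 5 of the 8 windows and in 37.9% of all promoters. TATAAA was found in 0 of the 8 (14.2% of all promoters), GGGCGG in 3, the RUNX motif TGTGGT in 2 (16.9%), the E-box CANNTG in 6 (72.2%) and the homeodomain core TAATTA in 0 (5.31%), each on both strands.

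Dpys encodes dihydropyrimidinase, which opens the ring of dihydrouracil and dihydrothymine when pyrimidine bases are broken down, a task best known from liver and kidney. It was the least abundant of the 9 genes per kilobase in both groups. Dpys lay at 1.11, 1.85 and 2.21 CPM in controls and at 0.716, 0.905 and 1.05 CPM in iKO libraries (lowest, median and highest of 6). Every iKO library was below every control, but the lowest control, control 6, was only 1.06 times the highest iKO library, and counts were 12 to 35 per library. Mean Dpys went from 1.78 ± 0.456 to 0.888 ± 0.134 CPM (SD, n = 6 each), with a log2 fold change of -1.03 ± 0.20 (SE).

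Of 10 tested genes of pyrimidine breakdown 2 were called lower, 1 of them Dpys, which was picked for its fall, and 0 higher. Over all genes tested 0.409% were called lower. The list median was 0.03, and Agxt2 had 0 counts in all libraries. The other gene that fell was Abat, the GABA transaminase, which also acts on β-alanine, an end product of uracil breakdown. Abat went from 88.3 ± 6.87 to 72.4 ± 3.24 CPM (SD, n = 6 each), a log2 fold change of -0.30 ± 0.06 (SE, adjusted p = 0.0186 in edgeR). Dpyd, whose enzyme acts before dihydropyrimidinase, had -0.10 ± 0.08 (SE, adjusted p = 0.717 in edgeR), and Upb1, whose enzyme acts after it, had 0.28 ± 0.13 (SE, adjusted p = 0.528). The count of called genes in this pathway was 0 without control 1, 1 without control 2 or any of iKO 2, 4, 5 and 6, and 0 with the replicate number as a block. Of the 5 CRMP genes, relatives of Dpys that guide growing axons, 0 were called in edgeR, DESeq2 or limma-voom (0 at an unadjusted p under 0.05, median 0.04), and the smallest p was that of Dpysl5 (0.11 ± 0.08 SE, adjusted p = 0.722 in edgeR). For 8 genes of pyrimidine synthesis the count was also 0 by all 3 tools (2 at an unadjusted p under 0.05, median -0.02), the smallest p being that of Cad (0.28 ± 0.10 SE, adjusted p = 0.366 in edgeR).

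Fyb2 encodes a relative of FYB, an adaptor that links T cell receptor signals to integrins. Fyb2 lay at 2.18, 3.59 and 4.41 CPM in controls and at 1.26, 1.74 and 2.00 CPM in iKO libraries (lowest, median and highest of 6). The groups did not overlap, with control 5 lowest among controls at 1.09 times the highest iKO library. Mean Fyb2 went from 3.45 ± 0.772 to 1.73 ± 0.270 CPM (SD, n = 6 each), with a log2 fold change of -1.03 ± 0.17 (SE). Fyb itself had -0.28 ± 0.25 (SE, adjusted p = 0.756) and Skap2, a binding partner of FYB, 0.01 ± 0.07 (SE, adjusted p = 0.976 in edgeR). Of 10 tested FYB genes and partners only Fyb2, which was picked for its fall, was called (list median 0.03). T cell markers were low in both groups: 2 of 8 passed the filter, 0 were called in edgeR (0 at an unadjusted p under 0.05), and their summed level was 5.96 to 13.1 CPM in controls and 4.34 to 11.5 CPM in iKO libraries.

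H2-M11 is a non-classical class I histocompatibility gene, and related H2-M10 genes are known from sensory neurons of the vomeronasal organ. Against all controls it had the largest fall of the picked genes. Against the corn-oil controls alone its log2 fold change was -1.01 ± 0.46 (SE), nearer to 0 than Creg2 (-1.52 ± 0.22) and Lrrn4 (-1.13 ± 0.25). H2-M11 also had the widest spread among controls, with a coefficient of variation of 51.1%. H2-M11 lay at 1.42, 2.40 and 4.72 CPM in controls and at 0.333, 0.561 and 1.12 CPM in iKO libraries (lowest, median and highest of 6). The groups did not overlap, and the highest iKO library was iKO 1, at 218% of the mean of the other 5. The mean went from 2.698 ± 1.38 to 0.615 ± 0.295 CPM (SD, n = 6 each), 22.8% of the control level, with a log2 fold change of -2.09 ± 0.39 (SE) and -2.37 without iKO 1.

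Of 12 H2-M genes, 4 passed the filter, and only H2-M11, which was picked for its fall, was called. H2-M5 went from 1.28 to 0.747 CPM (log2 fold change -0.78 ± 0.29 SE, adjusted p = 0.366), H2-M10.2 from 1.37 to 1.21 CPM (-0.20 ± 0.17 SE, adjusted p = 0.752) and H2-M3 from 10.51 to 11.07 CPM (0.07 ± 0.11 SE, adjusted p = 0.875) in edgeR's adjusted quasi-likelihood fit. Of 12 tested genes of other class I molecules and peptide loading, 0 were called in edgeR, DESeq2 or limma-voom (0 at an unadjusted p under 0.05), with a median of -0.11, and the smallest p was that of H2-T24 (-0.18 ± 0.10 SE, adjusted p = 0.576 in edgeR). B2m, the light chain of class I molecules, had a control mean of 286 CPM and an iKO mean of 268 CPM (-0.12 ± 0.13 SE). H2-M11 belongs to a family of similar genes, yet 0% of the 50-base words in its annotated transcripts occurred in transcripts of another gene. The count of H2-M genes called was 0 without control 2, iKO 4, iKO 5 or iKO 6, under a block on replicate number, and with no filter on low counts.

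Serpina1e is a mouse copy of the α1-antitrypsin gene, an inhibitor of neutrophil elastase made mainly in liver. Serpina1e lay at 2.84, 3.31 and 4.89 CPM in controls and at 0.641, 1.52 and 2.39 CPM in iKO libraries (lowest, median and highest of 6). All iKO libraries were below all controls, with iKO 1 and iKO 2 lowest at 0.641 and 0.776 CPM. The mean went from 3.57 ± 0.752 to 1.47 ± 0.706 CPM (SD, n = 6 each), with a log2 fold change of -1.24 ± 0.27 (SE). Reads could be shared with close copies, since 34.6% of its 50-base words also occurred in transcripts of other genes, most of them in Serpina1d (26.8%). Serpina1a, Serpina1b, Serpina1c and Serpina1d had 1, 4, 1 and 5 counts in all 12 libraries together, against 484 for Serpina1e, and Serpina1f had 0.

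Liver markers were low: Fgb had 0 counts and Alb 2 counts in all libraries, and the summed level of 10 markers was 2.54 to 6.48 CPM in controls and 2.74 to 8.07 CPM in iKO libraries, with 0 of the 3 tested called in edgeR (0 at an unadjusted p under 0.05). Of 25 genes of the Serpina family 8 were tested, with a median of -0.22. Of these, 2 were called lower, 1 of them Serpina1e, which was picked for its fall, and 0 higher. Over all genes tested 0.409% were called lower. Serpina3g, an inhibitor of cysteine proteases, fell by 0.36 ± 0.07 (SE) on the log2 scale, from 49.9 ± 2.97 to 38.8 ± 3.49 CPM (SD, n = 6 each, adjusted p = 0.0152 in edgeR). The count of Serpina genes called was 0 on leaving out control 1, control 2, iKO 5 or iKO 6, and 1 on leaving out control 3, 4 or 5 or iKO 2.

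**Figure D2:**
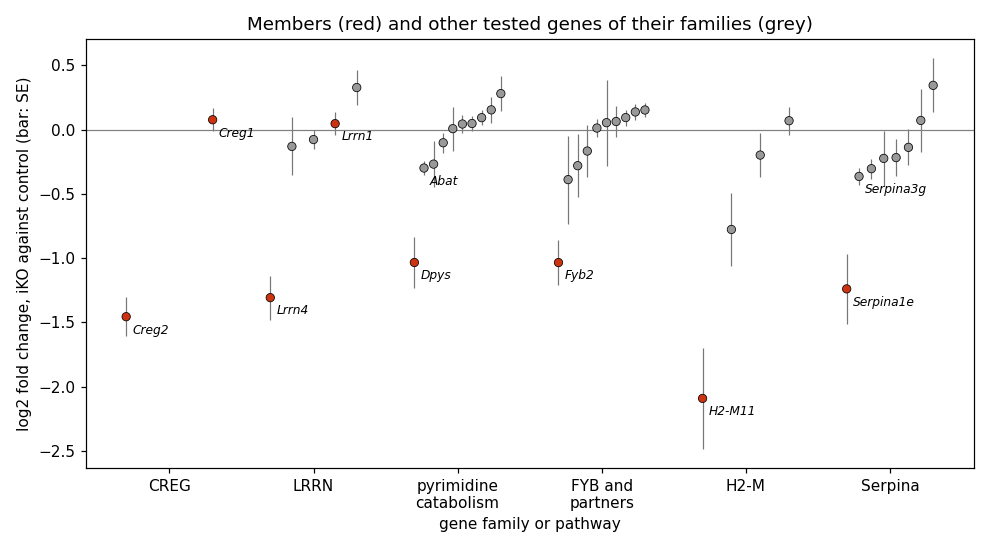
Log2 fold change of iKO against control (vertical axis, bar for the SE) for the members (red) and the other tested genes (grey) of 6 families or pathways. In each group a picked gene lies lowest, from -1.03 for Dpys and Fyb2 to -2.09 for H2-M11, which follows from their choice by this fold change. Among other genes Abat (-0.30) and Serpina3g (-0.36) were called.

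In CPM per kilobase the order in controls was Lrrn1 (108), Creg1 (9.47), Creg2 (4.51), Smr2 (3.73), H2-M11 (2.68), Serpina1e (2.21), Fyb2 (1.10), Lrrn4 (1.03) and Dpys (0.476). Neighbours whose control libraries overlapped were Creg2 and Smr2, Smr2 and H2-M11, H2-M11 and Serpina1e, and Fyb2 and Lrrn4. In iKO libraries Creg2 stood below Smr2, at 1.597 against 1.874 CPM per kilobase, with overlapping libraries.

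**Figure D3:**
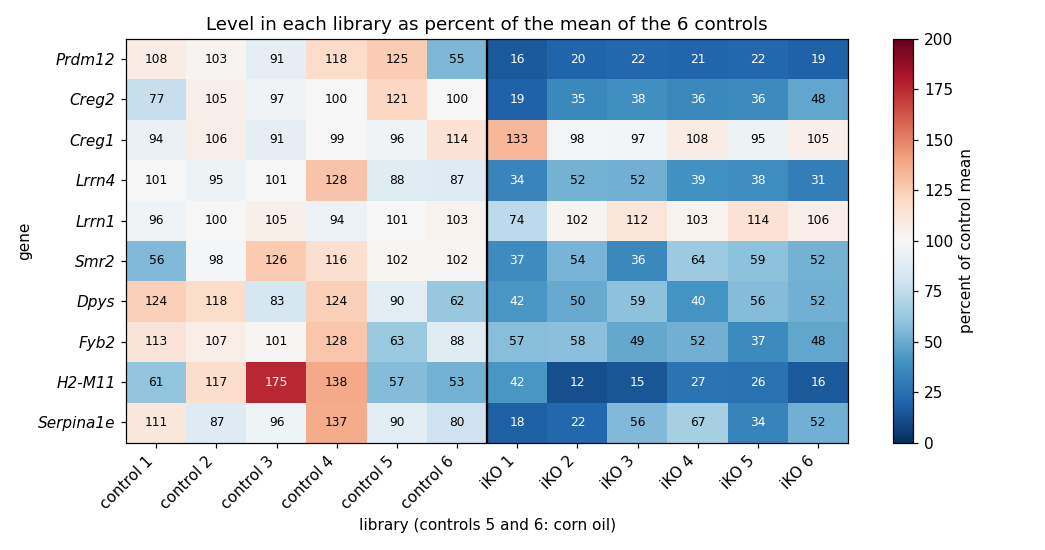
Level of Prdm12 and the 9 genes (rows) in each library (columns) as a percent of the mean of the 6 controls, coloured from blue (0) through white to red (200). Prdm12 is at 55.0% in control 6, where Creg2 is at 100.5% and H2-M11 at 52.6%, and iKO 1 has 19.3% for Creg2.

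The controls were of mixed kinds, and the picked genes differed in where the corn-oil controls lay. Both comparisons share the iKO libraries, so their values are set side by side only. Against the 4 tamoxifen-injected controls the log2 fold changes were -1.43 ± 0.17 (SE) for Creg2, -1.37 ± 0.18 for Lrrn4 and -0.97 ± 0.17 for Smr2, and against the 2 corn-oil controls they were -1.52 ± 0.22, -1.13 ± 0.25 and -0.76 ± 0.23. For Dpys they were -1.16 ± 0.20 and -0.66 ± 0.29, and for Fyb2 -1.16 ± 0.16 and -0.65 ± 0.23. For H2-M11 they were -2.37 ± 0.32 and -1.01 ± 0.46, and for Serpina1e -1.39 ± 0.28 and -0.82 ± 0.38. Creg2 was the picked gene with the larger value against corn oil, and H2-M11 had the widest gap.

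**Figure D4:**
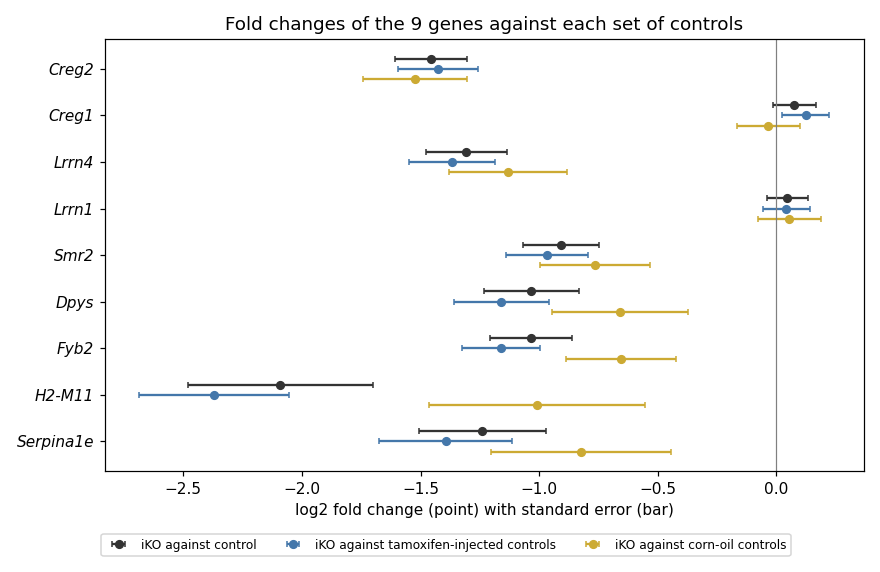
Log2 fold change (points) with its SE (bars) of iKO libraries against all controls, the tamoxifen-injected controls and the corn-oil controls, for each of the 9 genes. The corn-oil values of Lrrn4, Smr2, Dpys, Fyb2, H2-M11 and Serpina1e lie nearer to 0 than the tamoxifen values, and that of Creg2 does not.

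Corn-oil controls were tested against tamoxifen-injected controls, a comparison that uses no iKO library. With sex as a term it rests on males, controls 5 and 6 against controls 3 and 4, since both females received tamoxifen. H2-M11 was at 1.53 and 1.42 CPM in the corn-oil controls and at 4.72 and 3.72 CPM in the tamoxifen-injected males, and the tamoxifen-injected females had 1.64 and 3.16 CPM. Its log2 fold change was -1.52 ± 0.34 (SE, 95% interval -2.26 to -0.79, unadjusted p = 0.000781, adjusted p = 0.190 in edgeR), which did not pass the threshold. DESeq2 gave no adjusted p for it. Over the alternatives with one, the adjusted p ran from 0.000368, with no filter on low counts, to 0.950, without control 3. Fyb2 had -0.59 ± 0.26 (SE, 95% interval -1.15 to -0.02, unadjusted p = 0.0441, adjusted p = 0.363 by the same edgeR test), with 2.18 and 3.02 CPM under corn oil and 3.48 and 4.41 CPM in tamoxifen-injected males.

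The remaining picked genes had values of 0.17 ± 0.15 (SE) for Creg2, -0.38 ± 0.23 for Lrrn4, -0.25 ± 0.25 for Smr2, -0.44 ± 0.34 for Dpys and -0.46 ± 0.26 for Serpina1e, with adjusted p from 0.473 to 0.680 in edgeR. Creg1 had 0.15 ± 0.13 and Lrrn1 0.03 ± 0.08. Over 16791 genes 0 were called (0%) in edgeR and by limma-voom, 195 by DESeq2, and 2240 (13.3%) had an unadjusted p under 0.05. The corn-oil controls are both Rosa26Cre ERT2; Fl/Fl and carry the highest replicate and library numbers, while control 3 is +/+; Fl/+ and control 4 is Rosa26Cre ERT2; +/+. Agent, floxed genotype and numbering therefore cannot be told apart in this comparison.

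Library numbers in the deposited names form 2 runs, 1 to 8 for replicates 1 to 4 and 14 to 17 for replicates 5 and 6, and the labels do not say what they stand for. Within replicates 1 to 4 and within replicates 5 and 6, the log2 fold change was -1.51 and -1.39 for Creg2, -1.22 and -1.35 for Lrrn4, and -0.88 and -0.87 for Smr2. It was -1.27 and -0.47 for Dpys, -1.04 and -0.84 for Fyb2, -2.14 and -1.38 for H2-M11, and -1.29 and -0.98 for Serpina1e. All 7 genes were lower in both runs, but they were picked for their fall in these same libraries. The runs are therefore no independent check, and in each of them 1 of the 7 was called in edgeR. Dpys had the value nearest to 0, in replicates 5 and 6. The controls of the higher-numbered run were those given corn oil.

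Sex played no part in the choice of genes and was tested over all 12 libraries. For Smr2, control males had 5.63 ± 0.602 CPM (SD, n = 4) and control females 2.83 and 4.94 CPM, while iKO males had 2.94 ± 0.290 and iKO females 2.13 ± 0.512 CPM (SD, n = 3 each). Both control females lay below all control males, and the iKO libraries of the sexes overlapped. Its log2 fold change of male against female was 0.50 ± 0.16 (SE, unadjusted p = 0.00803, adjusted p = 0.904 in edgeR) and so did not pass the threshold. The other 8 genes lay between -0.25 ± 0.20 (SE) for Dpys and 0.31 ± 0.27 for Serpina1e, with adjusted p of 0.904 or above by the same test, where 0.0549% of all genes tested were called. Whether the fall differed between the sexes was tested as an interaction. It ranged from -0.40 ± 0.34 (SE) for Lrrn4 to 0.63 ± 0.54 for Serpina1e, with adjusted p from 0.945 to 0.993 by the same test. Over all genes 0 (0%) passed in edgeR and by limma-voom, 2 by DESeq2, and 589 (3.59%) had an unadjusted p under 0.05.

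Genes whose level over the 12 libraries was most like that of Creg2, Lrrn4, Smr2 or Dpys were sought among 13782 genes with a mean of at least 1 CPM. These correlations are descriptions over 12 libraries that share the iKO contrast, and without iKO 1, 10 of the 12 genes named left the 3 nearest (all but Mettl7a3 and Siah3), with ranks down to 19. Creg2 was most like Mettl7a3 (Pearson's r = 0.962, Spearman's rho = 0.888), Siah3 (r = 0.960, rho = 0.923) and Bves (r = 0.938, rho = 0.867). Mettl7a3, of the methyltransferase-like family, averaged 23.7 CPM (controls) and 13.9 CPM (iKO), Siah3, a relative of the SIAH ubiquitin ligases, at 30.8 and 19.4 CPM, and Bves, a cyclic AMP-binding membrane protein gene, at 34.5 and 23.01 CPM. Lrrn4 was most like A3galt2 (r = 0.945, rho = 0.902), a galactosyltransferase gene, Prdm12 itself (r = 0.939, rho = 0.853) and Smyd3 (r = 0.931, rho = 0.888), a lysine methyltransferase gene. Dpys was most like Rgs8 (r = 0.930, rho = 0.895), a regulator of G protein signalling, Prdm12 (r = 0.924, rho = 0.902) and Hpcal1 (r = 0.924, rho = 0.916), a neuronal calcium sensor gene. Smr2 was most like Zfp354c (r = 0.915, rho = 0.909), Kcne4 (r = 0.903, rho = 0.909) and Rasef (r = 0.890, rho = 0.846), and none of these 3 was called between iKO and control (adjusted p from 0.0766 to 0.348 in edgeR).

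After the group and sex means were removed the nearest genes were others, and 0 of these 12 were called between iKO and control (adjusted p from 0.212 to 0.980 in edgeR). For Creg2 these were Lrp11 (r = 0.966), Lmln (0.965) and Tspyl5 (0.964), with r of 0.899, 0.920 and 0.886 without iKO 1. For Lrrn4 they were Kctd5 (0.941), Dnah9 (0.932) and Dcaf6 (0.888), for Smr2 Ttc1 (0.922), Tmem100 (0.890) and Anp32e (0.829), and for Dpys Eml4 (0.953), Tmcc3 (0.929) and Btbd1 (0.910). Without iKO 1, 6 of these 12 genes (Lrp11, Tspyl5, Dnah9, Dcaf6, Anp32e and Btbd1) left the 3 nearest, with ranks down to 18. Among the 9 genes themselves, the 36 pairs of residuals had a median r of 0.193, from -0.756 for Creg1 and Lrrn1 to 0.785 for Creg2 and Lrrn1. Creg2 had r of 0.230 with Lrrn4, 0.219 with Smr2 and 0.370 with Dpys, and without iKO 1 these were -0.326, 0.115 and 0.0495. Without iKO 1 the r of Creg2 and Lrrn1 was 0.127 and that of Creg1 and Lrrn1 was -0.200. On leaving out that library the r of Creg2 and Lrrn4 thus changed sign. That of Creg2 and Smr2 was weak and positive with and without it, and the others weakened.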

How the data were processed

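Poly(A) RNA of 12 dorsal root ganglion samples (6 iKO, 6 control) was sequenced from non-stranded libraries. Per the submitters' processing notes, the tools named are featureCounts 2.0.1, the aligner STAR 2.7.8a, and bcl2fastq 2.20.0.422, with genome build GRCm39. No source used here gives the annotation release. The authors deposited whole-number counts per Ensembl gene for each library, which were used as deposited. Symbols were matched for 52083 of 55416 identifiers (99.67% of counts). Exon lengths and gene overlaps came from a GENCODE M21 annotation of GRCm38, so CPM per kilobase rests on approximate lengths.

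Counts were tested with edgeR 4.0.16 (quasi-likelihood, TMM scaling, filterByExpr, sex as a term, 16384 genes, 9 residual degrees of freedom, R 4.3.3) with Benjamini-Hochberg adjustment at 0.05. The 3 control contrasts, sex and the interaction used the same genes, and corn oil against tamoxifen used the 6 controls alone. DESeq2 1.42.0, limma-voom (limma 3.58.1), other filters and scalings, left-out libraries, a replicate block and the 2 library-number runs were alternatives. The code was tested on simulated data. Exact permutation tests enumerated 924 relabellings.

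The members and gene lists were chosen with earlier results of these data known. Named genes were the 9 members, Prdm12, every called gene of each list or, with none called, the gene with the smallest p, and the 3 genes most correlated with Creg2, Lrrn4, Smr2 and Dpys. Other relatives of the members were named after their values were seen. Promoter windows were matched by symbol for 8 of 9 members. Total counts were 13943784 to 20377766 per library, which left 6 to 80 counts for H2-M11 and 12 to 35 for Dpys in a library.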

Additional observations from a re-analysis of the deposited data

Results flagged for a closer look

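Among 20 groups of 6 libraries (9 genes and Prdm12, in controls and in iKO), 4 held a library whose gap to its nearest neighbour was large for the range of the group. Chance marks about 1 in 20 such groups, but these groups share the same 12 libraries and are not independent. The 4 marks therefore cannot be set against that rate. Creg1 stood at 29.8 CPM in iKO 1, the gap being 0.669 of the group's range. Lrrn1 stood at 297 CPM in iKO 1, below the other 5 iKO libraries (0.702 of the range). Prdm12 stood at 18.6 CPM in iKO 1, the lowest iKO value (0.630 of the range). Lrrn4 stood at 4.89 CPM in control 4, the highest control value (0.676 of the range).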

How the results depend on the processing

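Low counts limit H2-M11, Dpys, Lrrn4, Fyb2, Serpina1e and Smr2 (6 to 108 in a library). All 7 picked genes were lower in iKO in every alternative run, which their choice from these same libraries favours. On leaving out a library, 3 (without control 2) to 7 of the picked genes were called in edgeR. The value of Dpys was -0.47 and that of H2-M11 was -1.38 in replicates 5 and 6 only. The log2 fold change of Creg1 turned to -0.0744 there (adjusted p = 0.938 in edgeR). The 155 genes called between iKO and control became 294 with DESeq2, 253 with no filter, 235 without the corn-oil controls, 35 in replicates 1 to 4 and 82 in replicates 5 and 6 (fewer samples), and 92 (without control 1) to 364 (without iKO 1) on leaving out a library. The replicate numbers did not pair the samples (same-numbered deviations correlated at -0.220 to 0.0613, and 0 of 6 controls were most like the iKO library of their own number); with the replicate number as a block the count was 79, and those of pyrimidine breakdown and of the H2-M genes were 0. For the other contrasts, DESeq2, no filter and leaving out a library gave 594, 927 and 98 to 1459 against 222 (tamoxifen-injected controls); 68, 349 and 3 to 160 against 24 (corn-oil controls); 195, 659 and 0 to 18 against 0 (agent); 17, 16 and 8 to 11 against 9 (sex); and 2, 270 and 0 to 1 against 0 (interaction). Lysosome genes called went from 0 to 1 with DESeq2 size factors, with no filter or with the run as a term, to 2 with DESeq2, with no sex term or without the corn-oil controls, and 0 to 2 on leaving out a library. Other neuronal leucine-rich repeat genes went from 0 to 1 with DESeq2 or no filter, and 0 to 2 on leaving out a library. H2-M genes went from 1 to 0 with no filter, and 0 to 1 on leaving out a library. In replicates 1 to 4 and in replicates 5 and 6, the counts were 0 and 0 for the LRRN, casein cluster, FYB, pyrimidine breakdown and H2-M lists, 0 and 1 for Serpina, and 1 and 1 for the CGRP list. On leaving out a library they were 0 to 2 for pyrimidine breakdown, 0 to 3 for Serpina, 1 to 3 for CGRP, 0 to 1 for the casein cluster, and 1 throughout for LRRN and FYB. The cause of these changes was not tested.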
